A study of Homo sapiens with 4 samples.

Results

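The genes examined were 43 that encode drug-conjugating enzymes. They were taken as a list of names and not by a cut on measured values, but with earlier results of these data known. The list held 12 UDP-glucuronosyltransferases, 5 of the UGT1A and 7 of the UGT2B family. Of glutathione S-transferases it held 17 (4 GSTA, 5 GSTM, 5 of other kinds and 3 microsomal MGST). It also held 10 sulfotransferases (8 SULT1 and 2 SULT2), the N-acetyltransferases NAT1 and NAT2, and the methyltransferases TPMT and NNMT. Every peak that overlapped the body of such a gene or the 10 kb on either side was kept and counted once where clustered genes shared it. Peaks sharing 1 bp or more between libraries were joined, which gave 126 regions of the 80551 in the series, and the 43 genes were compared with 20033 protein-coding genes given windows of the same kind.

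Chromatin accessibility was measured by ATAC-seq, in which a transposase cuts and tags open DNA, in HepG2 cells, a human liver cancer line with hepatocyte features. The untreated cells gave 2 libraries, the control group, and the cells kept in 5 µM tazemetostat for 48 h gave the other 2, from 50000 cells each; all were wild type for genotype. Tazemetostat inhibits EZH2, the enzyme of polycomb repressive complex 2 that trimethylates lysine 27 of histone H3 at silenced genes, and the comparison asked where chromatin opened once EZH2 was inhibited. Neither the labels nor the methods say whether the control cells received solvent or whether the libraries came from separate cultures, so p-values measure only the spread between these libraries.

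Conjugation is the second phase of drug metabolism, in which liver cells attach a polar group to a drug, hormone or bile pigment so that it can leave in bile or urine. UGTs attach glucuronic acid, GSTs glutathione, SULTs sulfate and NATs an acetyl group, each drawing on a cofactor, while TPMT and NNMT attach a methyl group. The UGT1A, UGT2B, GSTA, GSTM and SULT1A genes stand in clusters of similar copies, and the UGT1A genes have separate first exons spliced to the same later exons.

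Depth was between 17.2 and 26.6 M mapped tags, with the groups overlapping, but the controls held 26133 and 34768 peaks and the tazemetostat libraries 55313 and 54157. All peaks together held 4.32% and 5.69% of the mapped tags in control 1 and 2, and 11.51% and 9.81% in tazemetostat 1 and 2. The peak files were made with a fragment length of 200 bp for both controls and 144 bp for both tazemetostat libraries, which cannot be told apart from the treatment. A peak's height is given as its normalised tag count, the tags per 10 M mapped tags; where no peak was called the files give no value, so a missing peak is not a value of 0. Of 12 hepatocyte markers, 8, 8, 8 and 9 had a promoter peak in control 1, control 2, tazemetostat 1 and tazemetostat 2, among them APOA1, TTR and SERPINA1, whereas ALB, AFP and FGB had none in any library. Of 4 leukocyte, 3 endothelial and 3 fibroblast or stellate markers, at most 1 of each kind had a promoter peak in any library, and of 2 cholangiocyte markers SOX9 had one in all 4.

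Shown first are the sequences on which the findings below turn, with RefSeq promoters (250 bases before to 50 after the start, build GRCh38.p14, in the direction of the gene) and parts of peaks (hg38, forward strand). The first 3 are the promoters with a peak in each tazemetostat library but no control, at chr4:69096224-69096523, chr4:68815744-68816043 and chr2:108377704-108378003. The next are MGST3 at chr1:165630984-165631283, where the tag count rose most, and GSTA4 at chr6:52995235-52995534, the tallest promoter of the set. The last are the centre of a region upstream of UGT1A1 at chr2:233756802-233757101 and the centre of a region near the SULT1A3 start at chr16:30199735-30200034, whose 300 bases occur again without a change at SULT1A4, chr16:29460393-29460692. Capitals mark matches, on either strand, to 7 short motifs: HNF4 CAAAGTCCA, HNF1 TTAATNATT, the antioxidant response element TGACNNNGC, CEBP TTGCNNAA, the xenobiotic response element TNGCGTG, FOXA TGTTTAC and the GC box GGGCGG.
UGT2B7 promoter: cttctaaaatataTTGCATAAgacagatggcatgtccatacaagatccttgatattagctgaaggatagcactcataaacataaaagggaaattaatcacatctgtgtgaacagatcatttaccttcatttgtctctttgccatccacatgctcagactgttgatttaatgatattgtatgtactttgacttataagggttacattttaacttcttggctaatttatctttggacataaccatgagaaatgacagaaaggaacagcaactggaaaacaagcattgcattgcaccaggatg
UGT2B10 promoter: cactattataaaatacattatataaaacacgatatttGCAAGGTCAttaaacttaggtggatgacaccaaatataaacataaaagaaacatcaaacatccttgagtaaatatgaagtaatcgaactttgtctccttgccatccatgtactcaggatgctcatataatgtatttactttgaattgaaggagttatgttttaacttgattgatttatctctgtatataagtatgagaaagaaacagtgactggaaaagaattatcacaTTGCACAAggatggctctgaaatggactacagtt
SULT1C4 promoter: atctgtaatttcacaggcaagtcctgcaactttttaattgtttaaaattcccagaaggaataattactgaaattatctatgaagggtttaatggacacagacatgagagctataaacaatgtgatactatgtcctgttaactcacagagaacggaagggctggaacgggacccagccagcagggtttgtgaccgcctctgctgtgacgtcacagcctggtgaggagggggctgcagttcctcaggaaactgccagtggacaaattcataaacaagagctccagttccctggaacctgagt
MGST3 promoter: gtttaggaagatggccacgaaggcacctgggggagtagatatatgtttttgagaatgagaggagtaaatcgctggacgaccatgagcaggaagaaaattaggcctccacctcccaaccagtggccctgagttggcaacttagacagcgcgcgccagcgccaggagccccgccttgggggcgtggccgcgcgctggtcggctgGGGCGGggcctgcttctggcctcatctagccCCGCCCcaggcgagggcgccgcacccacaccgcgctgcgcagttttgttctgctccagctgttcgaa
GSTA4 promoter: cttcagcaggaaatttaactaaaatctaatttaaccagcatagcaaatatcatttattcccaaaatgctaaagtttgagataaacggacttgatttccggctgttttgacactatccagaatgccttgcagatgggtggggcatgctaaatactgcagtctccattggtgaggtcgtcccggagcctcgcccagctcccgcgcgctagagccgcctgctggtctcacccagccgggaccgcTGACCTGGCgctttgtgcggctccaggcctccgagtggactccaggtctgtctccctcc
UGT1A1 upstream region: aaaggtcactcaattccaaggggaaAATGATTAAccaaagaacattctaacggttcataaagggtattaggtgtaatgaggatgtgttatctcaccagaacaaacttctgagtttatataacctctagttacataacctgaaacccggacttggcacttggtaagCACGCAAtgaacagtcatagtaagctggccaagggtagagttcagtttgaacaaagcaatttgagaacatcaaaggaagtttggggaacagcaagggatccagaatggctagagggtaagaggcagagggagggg
SULT1A3 region: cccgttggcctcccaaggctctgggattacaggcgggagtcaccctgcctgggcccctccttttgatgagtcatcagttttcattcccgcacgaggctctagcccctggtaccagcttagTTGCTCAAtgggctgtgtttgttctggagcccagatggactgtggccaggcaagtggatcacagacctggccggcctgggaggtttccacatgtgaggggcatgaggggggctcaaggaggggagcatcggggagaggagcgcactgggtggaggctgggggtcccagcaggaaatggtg
The UGT2B7 and UGT2B10 promoters each held 1 CEBP match, UGT2B10 and GSTA4 each held 1 antioxidant response element match, and MGST3 held 2 GC boxes. No letters of the 7 motifs were found in the SULT1C4 window. The UGT1A1 upstream sequence held 1 HNF1 and 1 xenobiotic response element match, and the SULT1A3 sequence held 1 CEBP match.

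To see whether the conjugation genes gained peaks, the peaks in their windows were counted. There were 47 in control 1, 64 in control 2, 96 in tazemetostat 1 and 96 in tazemetostat 2, a mean of 55.5 ± 12.02 (SD, n = 2) against 96.0 ± 0 (SD, n = 2). Both tazemetostat libraries lay above both controls, but an exact permutation test of 2 against 2 libraries, two-sided, gave p = 0.3333, the smallest that it can give. The ratio of the means was 1.73, while over all peaks of the series it was 1.8, and the windows held between 0.174% and 0.184% of each library's peaks. With the 26133 highest peaks of each library, as many as the smallest list held, the counts were 47 and 51 against 49 and 55, and the groups overlapped (exact permutation test, two-sided, p = 0.6667).

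Of the 126 regions, 24 (19.0%) had a peak in each tazemetostat library and none in the controls, here named tazemetostat-only, against 13.7% of all regions. None was called in both controls and in neither tazemetostat library, a class that held 0.449% of all regions. In all 4 libraries 38 regions (30.2%) were called, against 20.4% of all regions. A further 31 were called in 1 tazemetostat library alone, 13 in 1 control alone and 20 in some libraries of both groups, of which 16 lacked a peak in 1 control library only. The 24 tazemetostat-only regions were low: their mean normalised tag count under tazemetostat had a median of 12.9, against 33.2 at the 38 shared regions, and the same medians over all regions of these classes were 10.7 and 31.0. With that equal number of peaks per library, the tazemetostat-only class fell to 7 regions of 81 and the control-only class had 2. The shares of all regions were not counted at that setting, so 13.7% and 0.449% cannot be set beside these counts.

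**Figure D1:**
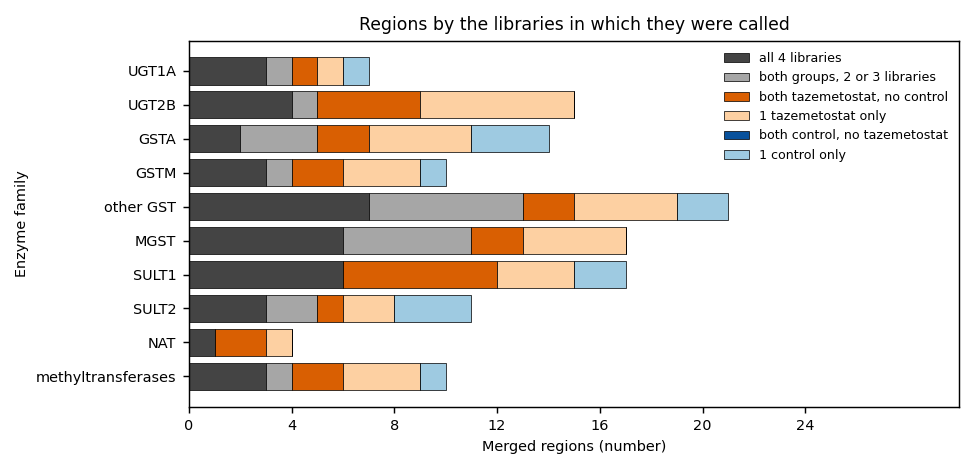
Number of merged regions in the gene windows of each enzyme family (horizontal axis, number of regions), split by the libraries in which a peak was called. The SULT1 family held 6 tazemetostat-only regions of 17 and the UGT2B family 4 of 15, and no family held a region called in both controls and no tazemetostat library.

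A tazemetostat-only region lay in the window of 23 of the 43 genes (53.5%), against 32.5% of all protein-coding genes. Some genes share one: the same region counted for UGT1A3, UGT1A4, UGT1A6 and UGT1A9. No region at all was found at UGT2B11, UGT2B28 and NAT2, 3 of 43 (6.98%), against 13.2% of protein-coding genes. Of the 24 regions 9 were intronic, 7 flanking, 3 at a canonical promoter (1 kb upstream to 100 bp downstream of the start), 3 at the promoter of another transcript and 2 in exons. Of the 126 regions 20 have a near-identical copy elsewhere in the genome (at least 95% identity over at least 80% of the length). Where the copies are identical their reads cannot be told apart. Without these 20, the tazemetostat-only regions were 19 of 106, in the windows of 15 of the 43 genes. Copies were not sought for the other regions of the series, so no matching share of all regions or genes exists.

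A peak at the canonical promoter was called for 11, 14, 16 and 16 of the 43 genes in control 1, control 2, tazemetostat 1 and tazemetostat 2, with both tazemetostat libraries above both controls (exact permutation test, two-sided, p = 0.3333). In all 4 libraries 11 promoters (25.6%) had a peak, against 30.5% of protein-coding genes: UGT2B4, GSTA4, GSTM2, GSTM4, GSTK1, MGST2, MGST3, SULT1C2, SULT2A1, NAT1 and TPMT. In both tazemetostat libraries and no control there were 3, UGT2B7, UGT2B10 and SULT1C4 (6.98%, against 5.61%). No promoter had the reverse pattern, and 26 had no peak, among them those of all 5 UGT1A genes and of GSTA1, GSTA2, GSTM1, GSTP1 and SULT1A1. With equal numbers of peaks per library the promoter counts were 11, 13, 11 and 12, so that the groups then overlapped and the difference of means turned to -0.5.

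**Figure D2:**
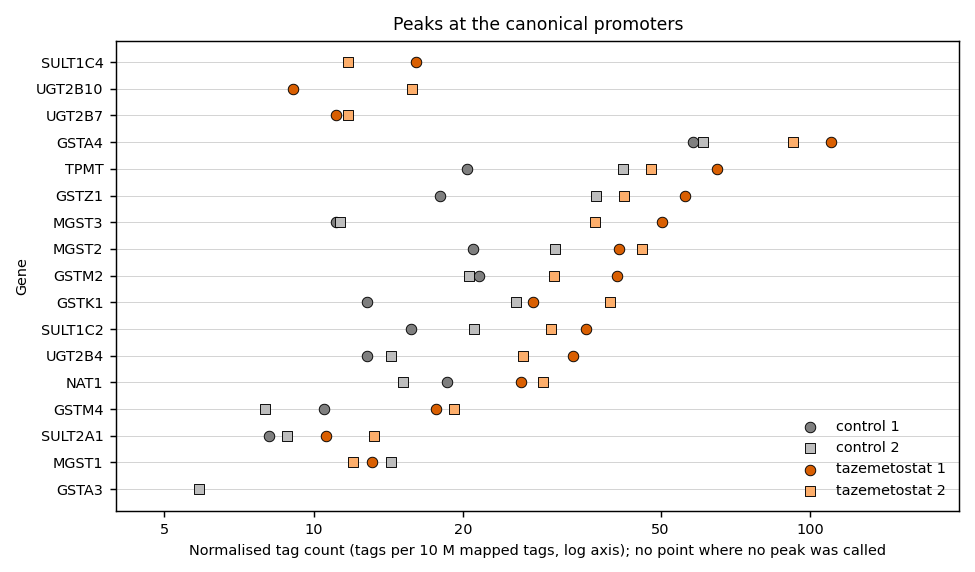
Normalised tag count (tags per 10 M mapped tags, log axis) of the tallest region touching each canonical promoter, for the 17 genes with one; circles and squares are replicates 1 and 2, grey is control and orange tazemetostat, and a missing point is a library with no peak. SULT1C4, UGT2B10 and UGT2B7 have orange points only, between 9.07 and 16.1, and at GSTZ1 the peak of control 1 lay wholly downstream of the promoter window.

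To compare heights, limma was run on log2(normalised tag count + 1) over all 15383 regions with exactly 1 peak in every library, of which 37 were at the conjugation genes. This selects shared regions, so it says nothing of regions that opened from no peak. Of the 37, 21 (56.8%) were higher under tazemetostat at an adjusted p under 0.05 (limma, Benjamini-Hochberg), against 42.7% of all tested regions, and 0 were lower, against 0.247% (0 also at an unadjusted p under 0.05, and 0 by edgeR and DESeq2). In 34 of 37 (91.9%) both tazemetostat values lay above both controls, against 81.6%. The median log2 change was 0.79, but that of all 15383 regions was 0.70, so most of the rise was shared by the whole list. When each library was centred on its median, 0 of 37 passed, but neither did any of the 15383, and at an unadjusted p under 0.05 there were 3 higher and 1 lower of the 37, beside 468 higher and 1188 lower of all. With edgeR and TMM factors 1 passed, the MGST3 promoter, against 0.15% of all regions. Per kb of peak 10 of the 21 calls also passed, with 1 other (11 of 37, against 32.9% of all regions). Without control replicate 1, the shallowest library, 10 of the 21 passed and no others did (against 21.0% of all regions); the GSTK1 promoter was lost in both fits, and most other losses are given beside the regions below. Changes are also given below relative to 0.70, and "rose" means that the region passed limma on the deposited scale only.

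**Figure D3:**
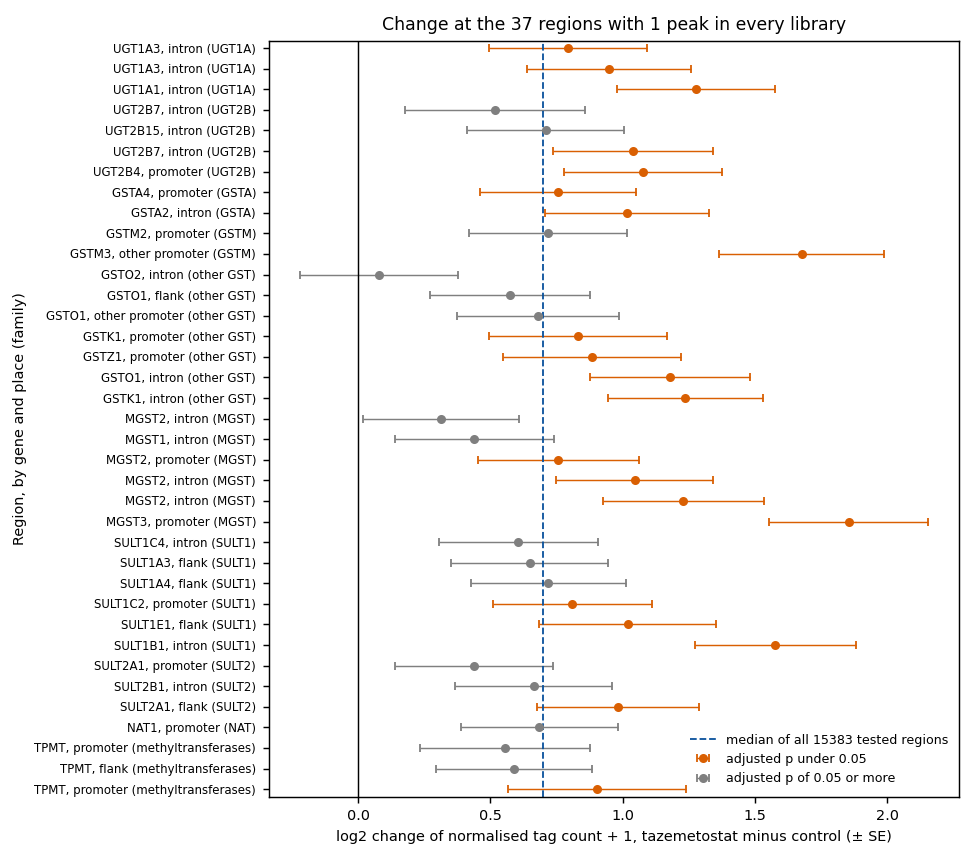
log2 change of the normalised tag count + 1 (tazemetostat minus control, ± SE of the limma fit, 2 libraries per group) at the 37 regions with 1 peak in every library, grouped by family. On this scale all points lie right of 0, whereas 18 of 37 were below 0 once the libraries were centred on their medians; the MGST3 promoter is farthest right at 1.86 and many lie near the dashed line, the median of all tested regions at 0.70.

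UGT1A enzymes glucuronidate bilirubin (UGT1A1) and many drugs. The family had 7 regions, and its peaks numbered 3, 5, 5 and 6 in control 1, control 2, tazemetostat 1 and tazemetostat 2, so the groups touched. None lay at a canonical promoter. All 3 regions tested rose. The region at chr2:233756576-233757326, -3319 bp from the start of UGT1A1 (negative is upstream) and printed above, had normalised tag counts of 19.8 and 16.0 in the controls and 48.9 and 40.7 under tazemetostat. The groups did not overlap, and the log2 change was 1.28 ± 0.30 (SE, limma, adjusted p = 0.00893), 0.58 above the median of all regions. A region 16578 bp downstream of the UGT1A3 start, within an intron, had 18.6 and 29.0 against 48.9 and 42.9, and also rose (0.95 ± 0.31, adjusted p = 0.0246), though without control replicate 1 it was 0.64 (adjusted p = 0.137) and the third UGT1A region was lost in the same way. The 1 tazemetostat-only region of the cluster, with 15.6 and 15.4, has 226 near-identical copies in the genome, the closest at 98.4% identity. Of these copies 24 and 55 had a peak in control 1 and 2, and 76 and 71 in tazemetostat 1 and 2. The place of the region is therefore uncertain, and copies of it had peaks in both groups.

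UGT2B enzymes glucuronidate steroids, bile acids and drugs such as morphine (UGT2B7). Their peaks numbered 4, 5, 10 and 14, with both tazemetostat libraries above both controls (exact permutation test, two-sided, p = 0.3333), and 4 of 15 regions were tazemetostat-only. The UGT2B7 promoter had no peak in the controls and 11.1 and 11.7 under tazemetostat, resting on 22 and 31 tags. These peaks stood at 9.36 and 5.45 times the local background. The UGT2B10 promoter had no peak in the controls and 9.07 and 15.8 under tazemetostat, resting on 18 and 42 tags, at 14.1 and 39.0 times the local background. The UGT2B10 region has a near-identical copy on the same chromosome at 95.3% identity, where both tazemetostat libraries again had a peak (12.6 and 13.9) and the controls had none, and an identical copy on an alternate contig.

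At UGT2B4, whose enzyme acts on bile acids, the promoter was open in all 4 libraries, with 12.8 and 14.3 in the controls and 33.3 and 26.4 under tazemetostat. It rose by 1.08 ± 0.30 on the log2 scale (limma, adjusted p = 0.0145), 0.38 above the median, but per kb of peak by 0.34 (adjusted p = 0.193). Another 2 regions of UGT2B4 were tazemetostat-only, an exonic one with 11.1 and 6.02 and an intronic one with 9.57 and 11.3. In an intron of a longer UGT2B7 transcript, the region at chr4:69057552-69058329, had 26.8 and 19.3 against 52.4 and 43.7 and rose (1.04 ± 0.30, adjusted p = 0.0171), but not per kb of peak (0.46, adjusted p = 0.0821). At UGT2B15 and UGT2B17, which act on androgens, no promoter peak was called. The 1 shared region of UGT2B15 had 8.73 and 9.66 against 17.6 and 13.9, which did not pass (limma, adjusted p = 0.0565). It has a near-identical copy at UGT2B17 and an identical copy on an alternate contig. At the identical copy control 1 had no peak, while control 2, tazemetostat 1 and tazemetostat 2 had 12.6, 34.3 and 24.8. Reads from identical copies cannot be told apart, so the heights of this region are uncertain.

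GSTA enzymes conjugate glutathione to products of lipid peroxidation, and GSTA4 prefers 4-hydroxynonenal. Their peaks numbered 4, 6, 9 and 9 over 14 regions, with no overlap between the groups (exact permutation test, two-sided, p = 0.3333). The GSTA4 promoter had 58.2 and 60.9 in the controls and 110.4 and 92.6 under tazemetostat. It passed limma (0.75 ± 0.30, adjusted p = 0.0455) but lay only 0.05 above the median of all regions, and its change was -0.01 when the libraries were centred; the call was also lost per kb of peak (adjusted p = 0.0557) and without control replicate 1 (0.0987). An intronic region of GSTA2 at chr6:52761612-52762346 had 12.8 and 18.9 against 37.8 and 27.9 and rose (1.01 ± 0.31, adjusted p = 0.02), with 0.75 and no call without control replicate 1 (adjusted p = 0.0876). The 2 tazemetostat-only regions flanked GSTA1 (10.1 and 8.28) and GSTA3 (16.6 and 16.9). The GSTA3 promoter had a peak in control 2 alone, 5.88, and those of GSTA1 and GSTA2, the main forms in liver, had none.

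GSTM enzymes detoxify electrophiles. Their peaks numbered 5, 3, 9 and 7 over 10 regions, with no overlap between the groups (exact permutation test, two-sided, p = 0.3333). At GSTM3 a region 691 bp downstream of the canonical start, at the promoter of another transcript, had 9.89 and 6.72 in the controls and 33.8 and 23.7 under tazemetostat. It rose by 1.68 ± 0.31 on the log2 scale (limma, adjusted p = 0.00423), 0.98 above the median. The called peaks were 384 and 300 bp long in the controls and 1058 and 752 bp under tazemetostat, and per kb of peak the change was 0.39 and did not pass (adjusted p = 0.139), as it did not when centred (0.92, adjusted p = 0.328). The GSTM2 promoter, the tallest of the family among shared regions, had 21.5 and 20.6 against 40.8 and 30.5 and did not pass (0.72 ± 0.30, adjusted p = 0.0552). The 2 tazemetostat-only regions, with 15.1 and 14.7 and with 15.6 and 25.2, lay at the far end of the long annotated GSTM5 gene, 61613 and 64895 bp downstream of its start. Another region there, at the promoter of EPS8L3, had a peak of 35.5 in control 1, none in control 2, and 41.8 and 36.5 under tazemetostat. GSTM1 had 1 region in its window and no promoter peak.

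Among the other GSTs, GSTP1 is the form prominent outside the liver. It had 2 regions, both called in control 2 alone, with 11.8 and 10.9, and none under tazemetostat. Both peaks were 300 bp long and stood at 4.01 and 4.1 times the local background, near the limit of 4 for listing a peak. GSTK1, GSTO1, GSTO2 and GSTZ1 held the remaining 19 of 21 regions, and the family's peaks numbered 9, 15, 17 and 14, so the groups overlapped. An intronic region at GSTK1, whose enzyme resides in mitochondria and peroxisomes, had 14.5 and 14.3 against 36.3 and 34.3 and rose (1.24 ± 0.29, adjusted p = 0.00961), 0.54 above the median. A region -11632 bp from the GSTO1 start had 11.1 and 13.9 against 34.3 and 25.2 and rose as well (1.18 ± 0.30, adjusted p = 0.012), but not per kb of peak (0.46, adjusted p = 0.0812).

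At GSTZ1, which is also maleylacetoacetate isomerase of tyrosine breakdown, the promoter region had 18.0 and 37.0 against 55.9 and 42.2 and rose (0.88 ± 0.34, adjusted p = 0.0411); it is also the promoter of POMT2. That call rests on control 1: the change was 0.38 without it (adjusted p = 0.356) and 1.38 without control 2, and per kb of peak it was 0.28 (adjusted p = 0.283). The tallest region of the family, 36.1 and 37.8 against 67.0 and 45.9, lay at the promoter of CFAP43 in the flank of GSTO1 and did not pass (adjusted p = 0.111). The intronic GSTO2 region at chr10:104288165-104288834 moved least of the 37: it had 19.2 and 22.7 in the controls and 19.7 and 24.8 under tazemetostat, the groups overlapped, and the log2 change was 0.08 ± 0.30 (limma, adjusted p = 0.814), or -0.68 with centred libraries. Another GSTO2 intron held a tazemetostat-only region, with 15.6 and 13.9, and a region upstream of GSTK1 held one with 13.1 and 13.6.

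Microsomal GSTs sit in membranes; MGST2 and MGST3 also act in leukotriene metabolism. Their peaks numbered 6, 11, 14 and 15 over 17 regions (exact permutation test, two-sided, p = 0.3333), and 4 of the 6 tested regions rose. The MGST3 promoter had 11.1 and 11.3 in the controls and 50.4 and 36.9 under tazemetostat, on 19, 27, 100 and 98 tags. Its rise of 1.86 ± 0.30 on the log2 scale (limma, adjusted p = 0.00247) was the largest of the set and 1.16 above the median. Centred on the library medians the change was 1.09 ± 0.23 and missed the threshold (adjusted p = 0.157). Without tazemetostat replicate 1 or 2 it was 1.64 (adjusted p = 0.224) and 2.08 (adjusted p = 0.0954), in fits where none of the 15383 regions passed, and per kb of peak 0.91 (adjusted p = 0.00185).

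MGST2 had 10 regions, more than any other gene of the set. Its promoter had 20.9 and 30.7 against 41.3 and 45.9 (0.76 ± 0.30, adjusted p = 0.0496), but its change was -0.003 with centred libraries, 0.49 without control replicate 1 (adjusted p = 0.246) and 0.45 per kb of peak (adjusted p = 0.0866). Of its intronic regions the one at chr4:139692248-139693033 rose most, with 13.4 and 16.0 against 42.8 and 29.7 (1.23 ± 0.30, adjusted p = 0.0108). At MGST1 the promoter had no peak in control 1 and 14.3, 13.1 and 12.0 in control 2, tazemetostat 1 and tazemetostat 2, so that control 2 was highest. The tazemetostat-only regions of MGST1 (11.1 and 6.78) and MGST2 (6.55 and 6.78) were intronic.

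The cytosolic sulfotransferases of the SULT1 family act on phenols, catecholamines and oestrogens. Their peaks numbered 6, 8, 13 and 14 over 17 regions, with no overlap between the groups (exact permutation test, two-sided, p = 0.3333), and 6 of the 17 were tazemetostat-only, the most of any family. Of these 6, 3 lay in the SULT1A cluster and were the tallest tazemetostat-only regions of the set. The SULT1A3 region at chr16:30199577-30200192, 629 bp downstream of the start and printed above, had no peak in the controls and 75.6 and 75.3 under tazemetostat. The SULT1A4 region at chr16:29460194-29460845 had none in the controls and 85.2 and 56.1 under tazemetostat. The 2 are copies of each other at 100% identity over 616 bp, so they are counted here as 2 places but may share the same reads. Their fold over the local background was between 4.02 and 5.22, near the limit of 4 below which no peak was listed. The neighbouring regions at the promoters of SLX1B with BOLA2 and of SLX1A with BOLA2B, copies of each other too, had 68.6 and 68.1 against 121.4 and 105.4 and 59.3 and 68.5 against 109.4 and 92.2, and neither passed (adjusted p = 0.0524 and 0.074).

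In the same way the SULT1A1 region, with 52.4 and 29.7 under tazemetostat and no peak in the controls, is identical over 463 bp to a place at SULT1A2, where tazemetostat 1 alone had a peak of 33.3. At SULT1C4, expressed mainly before birth, the promoter had no peak in the controls and 16.1 and 11.7 under tazemetostat, on 32 and 31 tags. These peaks stood at 6.29 and 5.16 times the local background, and the region has no near-identical copy in the genome. SULT1C2 had an open promoter in all 4 libraries (15.7, 21.0, 35.3 and 30.1; adjusted p = 0.0383 in limma, but 0.155 without control replicate 1) and SULT1C4 a second region that did not pass. At SULT1B1, which sulfates thyroid hormones and phenols, an intronic region at chr4:69781609-69782302 had 11.1 and 16.8 against 42.3 and 43.3. It rose by 1.58 ± 0.30 on the log2 scale (limma, adjusted p = 0.0046), 0.88 above the median, and its centred change of 0.82 did not pass (adjusted p = 0.256). At SULT1E1, the oestrogen sulfotransferase, the only region lay in the flank, and had 16.9 and 36.1 against 55.4 and 47.4 (1.02 ± 0.34, adjusted p = 0.0254). Without control 1 the change was 0.49 and did not pass (adjusted p = 0.243), and without control 2 it was 1.54.

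SULT2A1 sulfates steroids such as dehydroepiandrosterone and bile acids. A region -5997 bp from its start had 20.4 and 30.3 against 54.4 and 46.3 and rose (0.98 ± 0.31, adjusted p = 0.0214), though neither without control replicate 1 (0.71, adjusted p = 0.103) nor per kb of peak (0.48, adjusted p = 0.0727), while its promoter, with 8.14 and 8.82 against 10.6 and 13.2, did not pass. A region 17214 bp downstream of the start was tazemetostat-only, with 8.57 and 6.02. SULT2B1, the cholesterol sulfotransferase of skin, had 7 regions, of which 3 were called in 1 control library alone; its tallest had no peak in control 1 and 13.0, 23.7 and 21.8 in the other libraries. Over both SULT2 genes the peaks numbered 5, 6, 8 and 6, so the groups touched.

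NAT1 acetylates arylamines in most tissues. Its promoter had 18.6 and 15.1 against 26.2 and 29.0; the groups did not overlap, but the change did not pass (0.69 ± 0.30, adjusted p = 0.0623) and fell just below the median. Both tazemetostat-only regions were intronic and low, with 6.55 and 9.79 and with 7.05 and 7.53, and another region had a peak of 10.6 in tazemetostat 1 alone. NAT2, the isoniazid-acetylating form of liver, had no peak in any library.

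TPMT inactivates thiopurine drugs. Its promoter, which is also that of KDM1B, had 20.4 and 42.0 against 65.0 and 47.8 and rose (0.90 ± 0.34, adjusted p = 0.0387), 0.20 above the median. That call too rests on control 1: the change was 0.40 without it (adjusted p = 0.337) and 1.41 without control 2, and per kb of peak it was 0.42 (adjusted p = 0.109). A flanking region at the promoter of NHLRC1 had 17.5 and 18.9 against 28.7 and 27.1 and did not pass (adjusted p = 0.0936). NNMT methylates nicotinamide. It had no peak in control 1 and a single one in control 2, of 10.5, in its flank. At the promoter of a longer NNMT transcript, -38471 bp from the canonical start, both tazemetostat libraries had a peak, with 15.1 and 14.3, and an intron held another, with 13.6 and 8.66. With promoters of all annotated transcripts, NNMT, SULT1A3 and SULT1A4 joined UGT2B7, UGT2B10 and SULT1C4, which made 6 genes with a promoter peak in both tazemetostat libraries and no control.

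**Figure D4:**
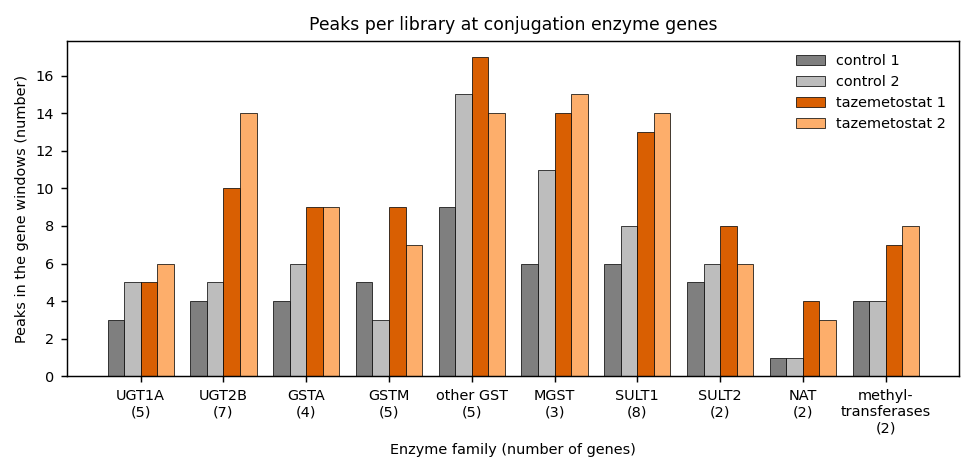
Number of peaks in the gene windows of each family (vertical axis) in each of the 4 libraries, with the number of genes in brackets. Both tazemetostat bars stand above both control bars in UGT2B, GSTA, GSTM, MGST, SULT1, NAT and the methyltransferases, while in UGT1A, the other GSTs and SULT2 the groups touch or overlap.

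The families were also compared by height. The summed normalised tag count over the windows was 983.3 ± 221.3 (SD, n = 2) in the controls and 2314.0 ± 232.3 under tazemetostat (exact permutation test, two-sided, p = 0.3333). Such a sum grows with the length called, and per kb of peak the values were 41.4 ± 2.69 and 50.0 ± 5.87. By family the ratio of summed tag counts ran from 1.78 in SULT2 and 1.87 in the other GSTs to 3.12 in UGT2B, and over the set it was 2.35. The sum over all peaks of the series was higher under tazemetostat too: 4.32% and 5.69% of mapped tags in the controls against 11.51% and 9.81%. In UGT2B the tag count per kb was 37.5 ± 9.12 in the controls and 37.6 ± 7.5 under tazemetostat, while the length called was 1.35 and 1.91 kb in the controls and 4.24 and 5.82 kb under tazemetostat.

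**Figure D5:**
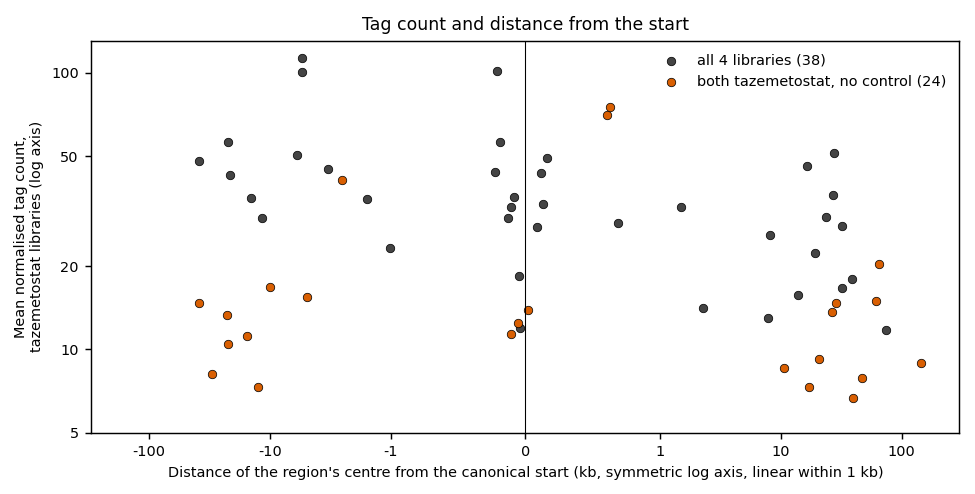
Mean normalised tag count of the tazemetostat libraries (log axis) against the distance of a region's centre from the canonical start of its gene (kb, negative is upstream, linear within 1 kb), for the 38 regions called in all 4 libraries and the 24 called in both tazemetostat libraries only. The orange points have the lower median, 12.9 against 33.2, but the 2 sets overlap, and the highest orange points are the pair of identical SULT1A copies, at 70.65 and 75.45.

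The 7 motifs were then counted in the 300 bp around the centre of each region, as a description. Of the 24 tazemetostat-only regions 11 (45.8%) held CEBP, against 16.9% of all tazemetostat-only regions and 13.2% of the 38 shared regions of the set. These 11 lay in 6 families and included the UGT2B7 and UGT2B10 promoters and the SULT1A copies, and 4 of them have a near-identical copy, so they are not independent sequences. FOXA was found in 9 of 38 shared regions (23.7%), against 8.98% of all shared regions. It was in 0 of the 24, against 9.71% of all tazemetostat-only regions. Beside the same class, the antioxidant response element was in 2 of the 24 (8.33%) against 15.0%, and the GC box in 4 (16.7%) against 19.5%. HNF4, HNF1 and the xenobiotic response element were in 0 of the 24, against 2.49%, 2.16% and 3.69%. Over the 126 regions CEBP was in 28 (22.2%) against 13.3% of all regions, and FOXA in 13 (10.3%) against 8.15%. The antioxidant response element, the site through which NRF2 is known to act on GST genes, was found in 20 of 126 (15.9%) against 14.3% of all regions, HNF4 in 1 (0.794%) against 1.83% and HNF1 in 4 (3.17%) against 1.85%. The xenobiotic response element was found in 5 (3.97%) against 4.31%, and the GC box in 22 (17.5%) against 21.8%. Of the RefSeq promoters, 39 were matched for 34 of the 43 genes. In these the antioxidant response element was in 10 (25.6%) against 13.3% of 35116 promoters and CEBP in 8 (20.5%) against 10.5%. HNF1 was in 2 (5.13%) against 1.31%, the xenobiotic response element in 3 (7.69%) against 5.51% and FOXA in 2 (5.13%) against 3.42%. The GC box was in 17 (43.6%) against 45.0%, and HNF4 in 0 against 0.384%.

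Genes that serve conjugation in other ways were set beside the enzymes. The 12 genes of cofactor supply serve the making, transport or turnover of UDP-glucuronic acid, glutathione, the sulfate donor and S-adenosylmethionine. They had 53 regions in their windows, 6 of them tazemetostat-only. Of 16 tested regions 6 rose and 0 fell, beside 42.7% and 0.247% of all 15383 tested regions. The MAT1A promoter, of the liver form of methionine adenosyltransferase, had no peak in the controls and 30.7 and 13.2 under tazemetostat. The 6 export genes had 42 regions, 5 tazemetostat-only, and 6 of 9 tested rose and 0 fell. Among them the promoters of ABCG2 (22.2 and 13.6) and ABCC4 (15.1 and 11.7), pumps for conjugated compounds, had a peak in both tazemetostat libraries and no control. Such a promoter was found at 1 of the 12 cofactor genes and 2 of the 6 export genes. None was found among the regulators and other conjugating enzymes, while 5.61% of protein-coding genes had one.

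The 10 regulators had 77 regions, 14 tazemetostat-only, and 15 of 25 tested rose and 0 fell. Outside the windows of the 43 genes, the other conjugating enzymes had 39 regions, 4 tazemetostat-only, and 5 of 11 tested rose and 1 fell, a GSTT2 region with 8.14 and 21.0 in the controls and 6.55 and 5.65 under tazemetostat (-1.001 ± 0.35, limma, adjusted p = 0.0317). Over the 4 lists the tazemetostat-only share was 13.7%, the same as that of all regions to the digits given. Of the 61 tested regions 32 rose and 1 fell, beside 42.7% and 0.247% of all 15383 tested regions. The median log2 change of the 61 was 0.74, and that of all 15383 was 0.70. The regions that the windows of UGT1A5, UGT1A7, UGT1A8 and UGT1A10 share with the UGT1A genes above were not counted again.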

How the data were processed

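Chromatin accessibility was measured in 4 HepG2 libraries, 2 untreated and 2 given tazemetostat, grouped by their titles. The 43 genes and the other gene lists were chosen with earlier results of these data known.

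Per the labels, the submitters' processing notes and the methods, the authors used Trim Galore 0.6.6 for trimming, Bowtie2 2.3.5.1 for alignment to hg38 with inserts of up to 2000 bp, and HOMER 4.11.1 for peaks; the notes also name bcl2fastq. Per the file headers each library was called separately, from 300 bp peaks with a fold of 4 over the surrounding 10 kb, a Poisson p-value of 0.0001 and a false discovery rate of 0.001 (0.05 in the methods). The methods describe DNase treatment before transposition for the tazemetostat cells and do not mention the controls. Handling of reads that align to several places is not given in the sources used here.

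Heights are the deposited normalised tag count, a signal in tags per 10 M mapped tags. The score column, deposited as a count whose meaning in stitched peaks is unclear, was not used for testing. Instead the tag counts that entered edgeR and DESeq2 came from the normalised tag count and the mapped tags, whose products were whole to within 0.25 in 100% of peaks and summed to the header totals. The deposited fold over the local background is a ratio and was used as a filter; the deposited p-value and the clonal fold were not used. The lists ended at normalised tag counts of 6.4, 5.04, 5.04 and 4.89, and between 62.7% and 80.0% of putative peaks had been removed by the local filter, so a place without a peak can hold more tags than a listed peak. No molecular identifiers are named, so counting error is a lower bound.

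Regions on the primary chromosomes were assigned to genes with GENCODE release 44. Group means were compared by the exact permutation test, two-sided. limma 3.58.1 on log2(normalised tag count + 1), which shrinks the change of low values, was run in R 4.3.3 on regions with exactly 1 peak per library, with adjustment over all 15383. Copies were found with blastn 2.17.0, and edgeR 4.0.16 and DESeq2 1.42.0 were alternatives. On simulated data with 200 of the 15383 regions changed 3-fold, limma recovered 68.0% with 4.9% false calls and edgeR 70.5% with 6.62%. That simulation had a fixed dispersion, as many rises as falls and no shift common to all regions. In the data the median log2 change of all regions was 0.70, so these rates do not measure false calls in the data. Named with values are promoters that differ between groups and, per family, the 2 highest regions, up to 2 largest rises and falls past the threshold, and up to 2 tazemetostat-only and 2 control-only regions; other regions named were chosen after their values were seen. Protein sequences were not used here.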

Additional observations from a re-analysis of the deposited data

Results flagged for a closer look

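The region at the UGT2B10 promoter has an identical copy on an alternate contig of chromosome 4, which the comparisons did not use. Peaks were called at that copy in both tazemetostat libraries, with normalised tag counts of 11.6 and 16.6 (mean 14.1), while no peak was called there in the controls, so no control value exists. Reads from the 2 copies cannot be told apart by sequence, and the copy is not independent of the promoter region.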

How the results depend on the processing

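The difference in peaks per library (40.5 between the means) kept its direction under all alternatives run: it was 10.5 with a local fold of at least 8, 3.0 with equal numbers of peaks (where the groups overlapped), 29.5 in gene bodies alone, 33.5 without near-identical copies and 32.0 to 49.0 leaving out a library. The promoter difference of 3.5 reversed to -0.5 with equal numbers of peaks, where the cause was not tested, and was 2.0 to 5.0 leaving out a library. With a local fold of at least 8 it was 1.0 and the groups overlapped. The promoter counts were then 7 and 4 in control 1 and 2, and 7 and 6 in tazemetostat 1 and 2. The tazemetostat-only regions were 9 with a local fold of at least 8, 7 with equal numbers of peaks and 25 to 41 leaving out a library (24 with all); the genes with such a region were 10, 10 and 23 to 30, and 15 without near-identical copies. The control-only regions were 1 and 2 in the first of these settings and 0 to 7 leaving out a library, where a class then rests on 1 library of that group. For these class counts, shares over all regions and genes were not taken under the alternatives.

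The regions higher in limma (21) were 0 with centred libraries, 11 per kb of peak, 1 with edgeR and TMM factors and 0 with DESeq2 (3 at an unadjusted p under 0.05), and 0 to 26 leaving out a library: 10 without control replicate 1, 26 without control replicate 2, and 0 without tazemetostat replicate 1 or without replicate 2. In those last fits the lone library was assumed to vary like the others, none of the 15383 regions passed either, and the median change of the 37 was 0.70 and 0.92. The count was 23 with edgeR and header library sizes, 24 with a pseudocount of 5 and 22 of 28 above a mean normalised tag count of 20, and 0 regions were lower in every one of these fits. Of the regions named by the stated rule, the following fell below 0 with centred libraries: GSTM2 (-0.041), GSTO1 at CFAP43 (-0.186), SULT1A4 (-0.041), SULT1A3 (-0.112), MGST2 promoter (-0.003), TPMT at NHLRC1 (-0.17), GSTA4 (-0.006) and NAT1 (-0.075); with edgeR and TMM factors, and DESeq2, GSTO1 (-0.122 and -0.122), SULT1A3 (-0.067 and -0.065) and TPMT (-0.095 and -0.096). Of the others given with values, GSTO2 (-0.681), the SULT2A1 promoter (-0.322) and UGT2B15 (-0.051) fell below 0 when centred, and GSTO2 (-0.606 and -0.609) and the SULT2A1 promoter (-0.201 and -0.212) in those other fits.

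The titles number the replicates in both groups, but neither the labels nor the methods name pairs. Deviations from the group means of control 1 and tazemetostat 1 had a correlation of -0.002 over 15383 regions. A shift common to all regions of a library does not enter that value, so it cannot show that the libraries are unpaired. Replicate 1 was the shallower in both groups, with 17.2 against 23.8 M mapped tags in the controls and 19.8 against 26.6 M under tazemetostat. With the replicate block, limma gave 16 higher regions and 0 lower, losing among others the GSTA4 (adjusted p = 0.0748) and MGST2 (0.0739) promoters, and the exact permutation test of the differences of 40.5 and 3.5 gave p = 0.5, the smallest that the block allows. Depth limits the weakest peaks, which in the gene windows rest on 12 to 16 tags at the lowest in each library.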
